A study of Triticum turgidum subsp. durum with 36 samples.

Results

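The change in the flag leaf transcriptome of the *gpc-A1* mutant between heading (HD) and 12 days after anthesis (12 DAA) was taken from 8 of the 36 libraries of the study, the 4 *gpc-A1* libraries at HD and the 4 at 12 DAA. Loci entered the comparison when 2 or more replicates of either group held over 3 reads, which 67479 of the 80168 deposited loci did. In any of the 9 groups, 75375 loci passed the same limit. All plants were tetraploid durum wheat, cultivar Kronos, grown in a greenhouse, and each library came from 1 whole flag leaf. The *gpc-A1* plants carried an induced premature stop codon in *GPC-A1*. The *gpc-A1/gpc-B2* double mutant carried this mutation and a premature stop codon in *GPC-B2*, and the wild type (WT) was a sibling line without either mutation. Kronos carries a non-functional *GPC-B1* with a 1-nt insertion, so all 3 genotypes lacked *GPC-B1* function and the *gpc-A1* plants had no functional *GPC1* copy. Each genotype was sampled at HD, 12 DAA and 22 DAA with 4 replicates, and the mutants came from backcrossed sibling lines of the same population. Since the mutations are stop codons, the transcript counts do not check the genotype labels.

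The *GPC* (*NAM*) genes encode NAC transcription factors. In wheat they promote monocarpic senescence, in which the leaf dismantles its chloroplasts and exports nitrogen, zinc and iron to the filling grain, and plants without functional *GPC1* stay green longer. *GPC2* is a paralog of *GPC1* on the homoeologous group 2 chromosomes. As leaves senesce, photosynthesis genes decline, and proteases and glutamine synthetase release nitrogen for export. Zinc and iron are moved between vacuole, chloroplast, cytoplasm and phloem by transporter families such as NRAMP, ZIP and YSL, in part bound to chelators such as nicotianamine and phytosiderophores.

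The 8 libraries held between 15785040 and 23183918 reads assigned to loci, and single libraries within a group differed by more than sampling noise. The 10 most abundant loci took 5.41 to 7.86% of the reads at HD and 4.35 to 6.41% at 12 DAA, with replicate 4 lowest in each group. The common biological coefficient of variation among replicates was 0.2 at HD and 0.244 at 12 DAA in *gpc-A1*, against 0.266 and 0.148 in WT. Loci described as chlorophyll a-b binding proteins, photosystem subunits and Rubisco subunits were among the most abundant described loci, as in green leaf. One label conflicted: *gpc-A1* HD replicate 1 was named *gpc-A1* in its title and source but wild type in its genotype field. The title was used. The study also looked for the induced mutations in its mapped reads and describes them in the mutant samples and not in the WT samples. Those reads were not analysed here. At 22 loci that separated the 4 WT HD libraries from *gpc-A1* HD replicates 2 to 4 by at least 4-fold, this library was nearer to *gpc-A1* at 15, and its counts correlated across loci at 0.961 to 0.969 with the other *gpc-A1* HD libraries and at 0.958 to 0.963 with the WT HD libraries. The number of DE loci, the number that changed differently from WT, the signs of the list medians and several named loci are also given without it. The list counts and the comparisons of DE loci across genotypes use all 8 libraries.

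A locus was called differentially expressed (DE) when it passed 4 tests: edgeR and DESeq2 with adjusted P of 0.01 or less each, no overlap of the 4 normalized counts of one group with the 4 of the other, and a test of the means at P of 0.01 or less. Between HD and 12 DAA in *gpc-A1*, 136 loci (0.202% of those tested) were DE. Of these, 79 (0.117%) were higher and 57 (0.0845%) were lower at 12 DAA. The rises ranged from 1.83- to 16.16-fold with a median of 3.32-fold, and the falls from 1.94- to 18.61-fold with a median of 3.79-fold. Over 4-fold changes were found at 20 loci that rose and 24 that fell. The loci that rose had a median of 76.3 normalized counts at HD, 254.7 at 12 DAA and 449.4 at 22 DAA, and those that fell 226.5, 57.6 and 30.8. In the 22 DAA libraries, which did not enter these 4 tests, the medians thus stood further from HD in both sets. The order was the same over all tested loci: 29.1, 38.6 and 45.1 for those higher at 12 DAA, and 76.4, 63.8 and 60.8 for those lower. Far more loci had 2 groups that did not overlap than passed all 4 tests: 6294 loci (9.33%), 3477 higher (5.15%) and 2817 lower (4.17%). At an unadjusted edgeR P below 0.05 there were 10962 loci (16.2%), 6155 higher (9.12%) and 4807 lower (7.12%).

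The number of DE loci depended on single libraries. Without HD replicate 1, the library with the conflicting label, 8 loci were DE (6 higher, 2 lower) and 7 of the 136 remained. Without HD replicate 2 there were 36, without HD replicate 3 there were 25, and without HD replicate 4 there were 126. At 12 DAA, leaving out replicate 1 gave 188 DE loci (85 higher, 103 lower), and leaving out replicates 2, 3 and 4 gave 42, 48 and 35. The share of DE loci that were higher ran from 35.4 to 80.6%. The 136 loci kept their direction in each of these 8 fits. Their call required groups without overlap, so leaving out 1 library could hardly reverse a direction, and this is no measure of stability.

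**Figure D1:**
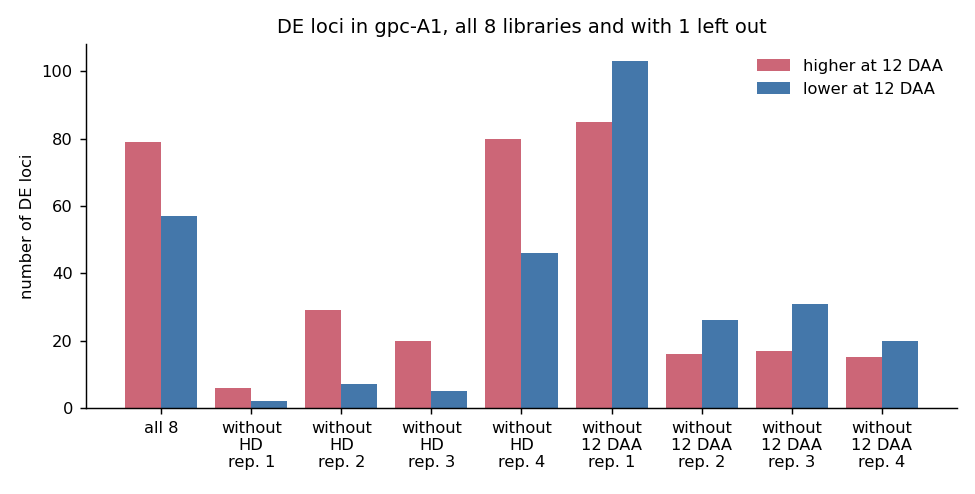
Number of DE loci between HD and 12 DAA in *gpc-A1* (vertical axis, linear) with all 8 libraries and with each library left out in turn (horizontal axis). Red bars are loci higher and blue bars loci lower at 12 DAA: with all 8 libraries there are 79 and 57, without HD replicate 1 there are 6 and 2, and without 12 DAA replicate 1 there are 85 and 103.

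DE loci were spread over the genome, 73 of 32241 tested loci of the A genome and 63 of 35238 of the B genome, with 1 to 13 DE loci on each chromosome arm. The 136 loci lay on 129 contigs of the survey assembly, and 6 contigs held more than 1. Names were at hand for 739 of the tested loci, either a protein description, read here for the most abundant loci only, or a place in the transporter and phytosiderophore gene families. Of the 739, 3 (0.406%) were DE, 2 that rose and 1 that fell. By edgeR alone at an adjusted P of 0.01 there were 9, of 216 loci (0.32%) over the whole set. Most named loci are among the most abundant in the leaf, and the median log2 fold change of the 739 was -0.24, against 0.02 over all loci tested, with 515 of 739 below 0.

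The first of the named DE loci was the 6AS locus described as the NAC transcription factor NAM-B1 (contig 4397602, bases 15266 to 17686), and it rose. The description comes from a protein match. The study places *GPC1* on the short arms of the homoeologous group to which 6AS belongs. It found no significant difference in *GPC-A1* transcript between WT and the mutants. By position the locus is that of *GPC-A1*, the mutated gene, although its sequence was not checked here. Its normalized counts were 554, 924, 793 and 1312 in HD replicates 1 to 4 and 5199, 5376, 3515 and 3309.5 at 12 DAA, so the lowest 12 DAA library was above the highest HD library by over 2-fold. The log2 fold change was 2.28 (SE 0.27, edgeR adjusted P = 0.00285). At 22 DAA the counts were 4031, 1524, 5923 and 4269.8. Replicate 2 lay below the 12 DAA range, near the highest HD library, and the other 3 lay within or above that range. In WT the log2 fold change was 2.67 and also passed the 4 tests, and the difference between the genotypes was -0.38 (interaction adjusted P = 0.917). With 1 library left out, the log2 fold change lay between 2.10 and 2.51, and the locus failed at least 1 of the 4 tests in 7 of the 8 fits, with edgeR adjusted P between 0.00281 and 0.0147.

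*GPC-A2* on 2AS (bases 2618 to 5026 of its contig), the A-genome copy of *GPC2*, passed 3 of the 4 tests. Its normalized counts were 36.7, 46.7, 21.2 and 50.95 at HD and 309, 554, 334 and 308 at 12 DAA. Replicate 2 stood above the other 12 DAA libraries, and no 12 DAA library came near the HD range. The log2 fold change was 3.26 (SE 0.28, edgeR adjusted P = 0.00103), and the test of means came just short of its limit. The edgeR adjusted P was 0.01 or less in all 8 fits with 1 library left out, the highest being 0.00922. At 22 DAA the 4 libraries held 615.5, 601, 618 and 793 normalized counts, all above the 12 DAA libraries. In WT the log2 fold change was 3.74 and passed the 4 tests, and the double mutant had means of 29.3 at HD and 491.6 at 12 DAA. The 2 *GPC*-family loci were thus several-fold higher at 12 DAA than at HD in the plants without functional *GPC1*.

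**Figure D2:**
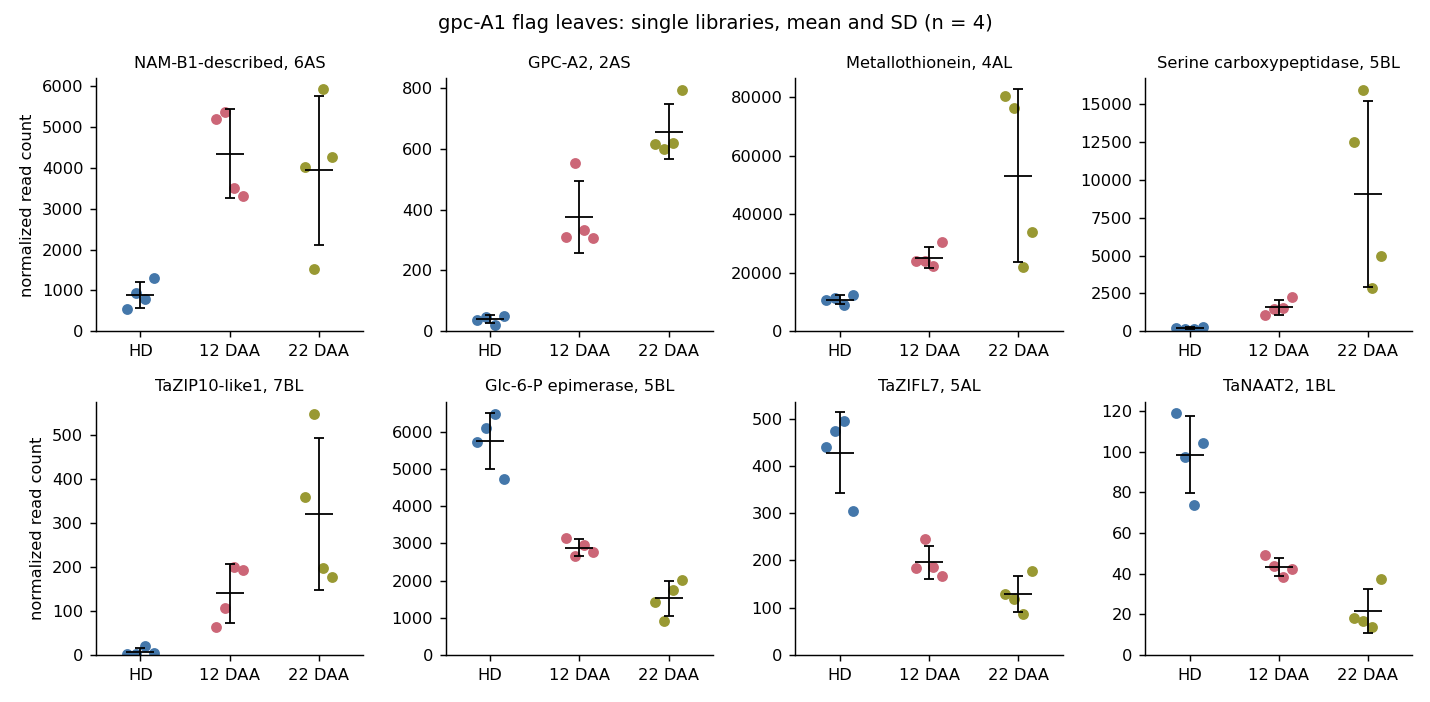
Normalized read counts (vertical axes, linear from 0) of 8 loci in the *gpc-A1* libraries at HD, 12 DAA and 22 DAA (horizontal axes). Points are single libraries, the long bar is the mean and the error bars are the SD of 4 libraries. The NAM-B1-described locus, the 4AL metallothionein and the glucose-6-phosphate 1-epimerase passed the 4 tests between HD and 12 DAA, the other 5 loci did not, and in all 8 panels the HD and 12 DAA points do not overlap.

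Of the 15 metal handling loci, 8 were above and 7 below 0 (median log2 fold change 0.02), and 1, which rose, passed the 4 tests. At an unadjusted P below 0.05, 4 were higher and 3 lower, and DESeq2 alone called 4 higher. Metallothioneins are small cysteine-rich proteins that bind zinc and copper. The metallothionein-like protein 1 locus on 4AL (contig 7115854, bases 2051 to 2904) had 10543, 11421, 8869 and 12246 normalized counts at HD and 24136, 23965, 22334 and 30325 at 12 DAA, a log2 fold change of 1.22 (SE 0.17, edgeR adjusted P = 0.00677). Its mean at 22 DAA was 53150.4, with the libraries spread widely. In WT the change was 1.04, not passing the 4 tests, and the difference between the genotypes was 0.20 (interaction adjusted P = 0.948). With 1 library left out, it failed at least 1 test in 7 of the 8 fits, and in the fit of all 9 groups its adjusted P was 0.0165. A second metallothionein-like locus, on 1BS (contig 3468506), passed 3 tests with counts of 4076, 5244, 3920.1 and 4992 at HD and 10419.7, 9654, 7973 and 13038 at 12 DAA (log2 fold change 1.17, SE 0.18, edgeR adjusted P = 0.0113), and with replicate number as a block it passed all 4.

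Among the 71 matched transporter and phytosiderophore synthesis loci, none passed the 4 tests in *gpc-A1*, edgeR alone called 1 and DESeq2 alone 9, and 29 had an unadjusted edgeR P below 0.05. Over all loci tested, edgeR called 0.32% and DESeq2 2.26% (1.37% higher and 0.898% lower). An unadjusted P below 0.05 was found at 16.2% (9.12% higher and 7.12% lower). Of the 739 named loci, which are mostly abundant and include all list members, edgeR called 9 and DESeq2 93. Of those 739, 298 had an unadjusted P below 0.05, 71 higher and 227 lower. The list counts are to be read against both sets. The 71 loci were matched through WT levels of 50 or more counts. A comparison of them between WT and *gpc-A1* is thus not on equal terms. The 1 edgeR call among the 71 transporter and synthesis loci was *TaZIP10-like1* on 7BL (bases 895 to 1586 of its contig). ZIP transporters carry zinc and iron into the cytoplasm. *TaZIP10-like1* was almost silent at HD with 1.27, 3.05, 21.2 and 3.4 normalized counts, and at 12 DAA it held 62.3, 106, 199 and 193 (log2 fold change 4.29, SE 0.60, edgeR adjusted P = 0.0073). HD replicate 3 was the highest HD library and lay well below the lowest 12 DAA library. Its adjusted P was 0.01 or less in 2 of the 8 fits with 1 library left out, and 0.0314 without HD replicate 1. In WT the means were 4.57 at HD and 654.4 at 12 DAA (log2 fold change 7.05), and the difference of -2.73 did not pass the interaction test (adjusted P = 0.74).

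The 37 plasma membrane transporters (the ZIP and YSL families) were 24 above and 13 below 0 in *gpc-A1*, with 13 higher and 1 lower at an unadjusted P below 0.05 and a median log2 fold change of 0.18. In WT 6 were DE and higher and 1 was DE and lower, with a median of 0.35. Their summed normalized counts in *gpc-A1* were 10804, 9701, 9916 and 10395 at HD and 9615, 12286, 13654 and 13953 at 12 DAA, so 12 DAA replicate 1 lay below the whole HD group and the groups overlapped. The ratio of the means was 1.213, and 1.791 in WT, where all 4 summed values at 12 DAA lay above the HD group, as the 4 normalized counts did at 7.89% of all loci in WT (5.99% lay below). No plasma membrane transporter differed between the genotypes at an interaction adjusted P of 0.05 by edgeR, 7 had an unadjusted interaction P below 0.05, and DESeq2 called 2 at an adjusted P of 0.01. The most nearly different was *TaZIP13-like2* on 2BS, which held 51.9, 43.7, 36.2 and 43.0 normalized counts at HD and 51.3, 116, 95.3 and 118 at 12 DAA in *gpc-A1*, against means of 78.5 and 915.6 in WT (difference -2.40, SE 0.54, interaction adjusted P = 0.196). *TaZIP3* on 2AL had a change of 0.13 in *gpc-A1* and 2.47 in WT (difference -2.31, interaction adjusted P = 0.209), and its HD and 12 DAA libraries in *gpc-A1* overlapped. *TaYSL16* on 2BL, which belongs to a family that moves metal chelates, had 2184, 2164, 2114 and 2544 normalized counts at HD and 1891, 2429.7, 1759 and 2189 at 12 DAA. *TaYSL14* on 6AL was at -0.045 (SE 0.22), also with overlapping groups.

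Of the 19 vacuolar transporters, 14 were below 0 and 5 above, with 6 lower and 1 higher at an unadjusted P below 0.05, none past the 4 tests or edgeR's adjusted P of 0.01 and 1 lower by DESeq2. The lowest unadjusted P in this group went with *TaZIFL7* on 5AL (bases 431 to 5200 of its contig), a member of the zinc-induced facilitator-like family. It had 440.3, 473, 495 and 305 normalized counts at HD and 185, 245, 186 and 166 at 12 DAA, with no overlap between the groups (log2 fold change -1.13, SE 0.18, edgeR adjusted P = 0.0123). In WT its mean was 397.2 at HD and 392.4 at 12 DAA, and the difference of -1.12 did not pass (interaction adjusted P = 0.382). With the replicate number as a block *TaZIFL7* passed all 4 tests. The most abundant vacuolar transporters, *TaNRAMP2* on 4BL and *TaNRAMP3* on 7AL, of a family with members that release iron from the vacuole in Arabidopsis, were at 0.30 (SE 0.25) and -0.17 (SE 0.19), with overlapping groups. The 8 chloroplastic transporters had 3 above and 5 below 0, none past the 4 tests or edgeR's adjusted P of 0.01, 2 higher by DESeq2, and 2 in each direction at an unadjusted P below 0.05. The 2 most abundant of them were the ferric reductase loci *TaFRO1* on 2AL and 2BL, with log2 fold changes of -0.30 (SE 0.30) and -0.37 (SE 0.28) and overlapping groups.

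Phytosiderophores are built from nicotianamine, made by NAS enzymes, through NAAT and DMAS enzymes. Of the 7 loci of this pathway, 5 were below 0 in *gpc-A1*, 4 of them at an unadjusted P below 0.05, and none passed the 4 tests or edgeR's adjusted P of 0.01, with 1 by DESeq2. Their median was -0.41 in *gpc-A1* and 0.41 in WT, and 3 had an unadjusted interaction P below 0.05. *TaNAAT2* on 1BL (bases 1126 to 3797 of its contig) held 119, 97.5, 73.7 and 104 normalized counts at HD and 48.9, 43.7, 38.1 and 42.3 at 12 DAA (log2 fold change -1.19, SE 0.19, edgeR adjusted P = 0.0115). In WT the mean was 188.1 at HD and 453.2 at 12 DAA, and the double mutant had 295.7 and 45.7. The difference between *gpc-A1* and WT was -2.46 (SE 0.57, interaction adjusted P = 0.215), so the opposite signs in the 2 genotypes did not pass the test of the difference. *TaNAS3* had log2 fold changes of -0.57 (SE 0.22) on 2BS and -0.63 (SE 0.21) on 2AS, and *TaDMAS1* on 4BL -0.35 (SE 0.16), with overlapping groups at all 3 loci.

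Among the protease loci, the locus described as serine carboxypeptidase-like 18 on 5BL (contig 10923998, bases 6245 to 8555) had the lowest edgeR P. Its place among the proteases rests on this description alone. Its family contains secreted and vacuolar peptidases. It held 240.4, 137, 157 and 250.2 normalized counts at HD and 1083, 1454, 1524 and 2236 at 12 DAA (log2 fold change 3.003, SE 0.26, edgeR adjusted P = 0.00103), and passed 3 of the 4 tests. Without HD replicate 1 it passed all 4, and its edgeR adjusted P was 0.01 or less in all 8 fits with 1 library left out. The mean at 22 DAA was 9066. The 36 protease loci as a whole divided evenly, 17 above and 19 below 0, with 7 higher and 12 lower at an unadjusted P below 0.05, none past the 4 tests, and 3 higher and 4 lower by DESeq2. The 2 most abundant proteases were FtsH proteases, which maintain photosystem II in the chloroplast, on 7AL: contig 4555942 had a log2 fold change of -0.45 (SE 0.17) and contig 4440597 of -0.59 (SE 0.16, edgeR adjusted P = 0.0978), both with groups that did not overlap. Vacuolar processing enzyme 4 on 3B, a vacuolar cysteine protease, had a change of 0.33 (SE 0.18) in *gpc-A1* and 1.44 in WT (difference -1.10, interaction adjusted P = 0.338).

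Of the 7 nitrogen recycling loci 2 were above and 5 below 0, none passed the 4 tests or edgeR's adjusted P of 0.01, 2 were higher by DESeq2, and 2 higher and 1 lower had an unadjusted P below 0.05. Cytosolic glutamine synthetase, which makes the glutamine loaded into the phloem, on 6BL (contig 227297) had 1557, 1392, 1412 and 2253 normalized counts at HD and 3226, 3474, 3434 and 6245 at 12 DAA (log2 fold change 1.31, SE 0.24, edgeR adjusted P = 0.0226). Replicate 4 was highest in both groups, and the groups did not overlap. Alanine aminotransferase 2 on 2BL had a change of -0.34 (SE 0.18), and nitrate reductase on 6AS of -0.61 (SE 0.53), with 12 DAA replicate 2 at 9537 normalized counts where the other 3 had 1831 to 2854.

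The photosynthesis loci were nearly all lower at 12 DAA by small amounts, and none of them passed the 4 tests. All 21 light harvesting loci were below 0, with a median log2 fold change of -0.48 and 6 at an unadjusted P below 0.05. Of the 42 photosystem and electron transport loci 40 were below 0 (median -0.39, 23 lower and 1 higher at an unadjusted P below 0.05), and of the 37 Rubisco and Calvin cycle loci 35 (median -0.55, 27 lower and 1 higher). Over all loci tested the median was 0.02, and 7.12% had an unadjusted P below 0.05 and were lower. Of the 739 named loci, which include these lists, 227 were lower at that P, and their median was -0.24. By edgeR's adjusted P of 0.01 alone, 1 locus of these 3 lists passed, a Rubisco activase locus that was higher. DESeq2 alone called 5 photosystem loci and 16 Rubisco and Calvin cycle loci lower and 1 of the latter higher, and no light harvesting locus.

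The most abundant members of these lists had overlapping groups. The 2 chlorophyll a-b binding loci on 5BL had log2 fold changes of -0.41 (SE 0.26) and -0.56 (SE 0.33). The photosystem II 10 kDa loci on 6BL and 6AL were at 0.34 (SE 0.28) and -0.27 (SE 0.20), and the Rubisco activase locus on 4AL at -0.34 (SE 0.28).

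Between same-numbered libraries, which shared a sequencing pool but came from separate leaves, 18 to 21 of the 21 light harvesting loci were lower at 12 DAA. The share over all loci in the same comparisons was not counted. Their summed normalized counts were 950609, 1228061, 950749 and 724013 at HD and 725226, 854126, 798502 and 426998 at 12 DAA, a ratio of means of 0.728, and 0.673 in WT. Replicate 4 had the lowest sum in both *gpc-A1* groups, and its HD value lay below 3 of the 12 DAA values, so the groups overlapped. For WT the lowest HD sum was again that of replicate 4, 541284 against 1304410 to 1457893 in the other 3. For the 10 chlorophyll synthesis loci the summed counts did not overlap in *gpc-A1*: 120524, 133353, 120933 and 102430 at HD and 91993, 81374, 87087 and 54979 at 12 DAA (ratio 0.661). All 10 were below 0 with a median of -0.62, 7 had an unadjusted P below 0.05, none passed edgeR's adjusted P of 0.01 and 3 passed that of DESeq2. Of the most abundant members, the Mg-chelatase subunit XANTHA-F, at the first step committed to chlorophyll, had log2 fold changes of -0.82 (SE 0.18, edgeR adjusted P = 0.0469) on 2AS and -0.52 (SE 0.18) on 2BS.

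The named photosynthesis loci with the lowest P included 2 small subunit loci of Rubisco, the carbon-fixing enzyme. The 2BS locus (contig 5229108) had 6512, 8681, 6921 and 6760.0 normalized counts at HD and 4196, 2911, 2729 and 2275 at 12 DAA (log2 fold change -1.26, SE 0.20, edgeR adjusted P = 0.0121). On 2AS (contig 5298517) the change was -1.23 (SE 0.19, edgeR adjusted P = 0.0116). Chloroplast phosphoglycerate kinase on 1AL, an enzyme of the Calvin cycle, had 36598, 33986, 38016 and 28161 counts at HD and 19800.4, 19695, 16560.0 and 15840.1 at 12 DAA (log2 fold change -0.93, SE 0.17, edgeR adjusted P = 0.0217). At each of these 3 loci every 12 DAA library was below every HD library. Neighbouring Rubisco activase loci on contig 4910205 of 4BS had log2 fold changes of opposite sign. Rubisco activase keeps Rubisco in its active form. The locus at bases 5859 to 9427 had 1807, 2433, 3219.5 and 1833 counts at HD and 4683, 9354, 10741 and 9941 at 12 DAA (log2 fold change 1.90, SE 0.27, edgeR adjusted P = 0.00837, 3 tests passed), and the locus at bases 10201 to 12695 had a change of -0.32 (SE 0.27) with overlapping groups. In WT the first of them passed the 4 tests (2.87) and the second was at -0.04.

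**Figure D3:**
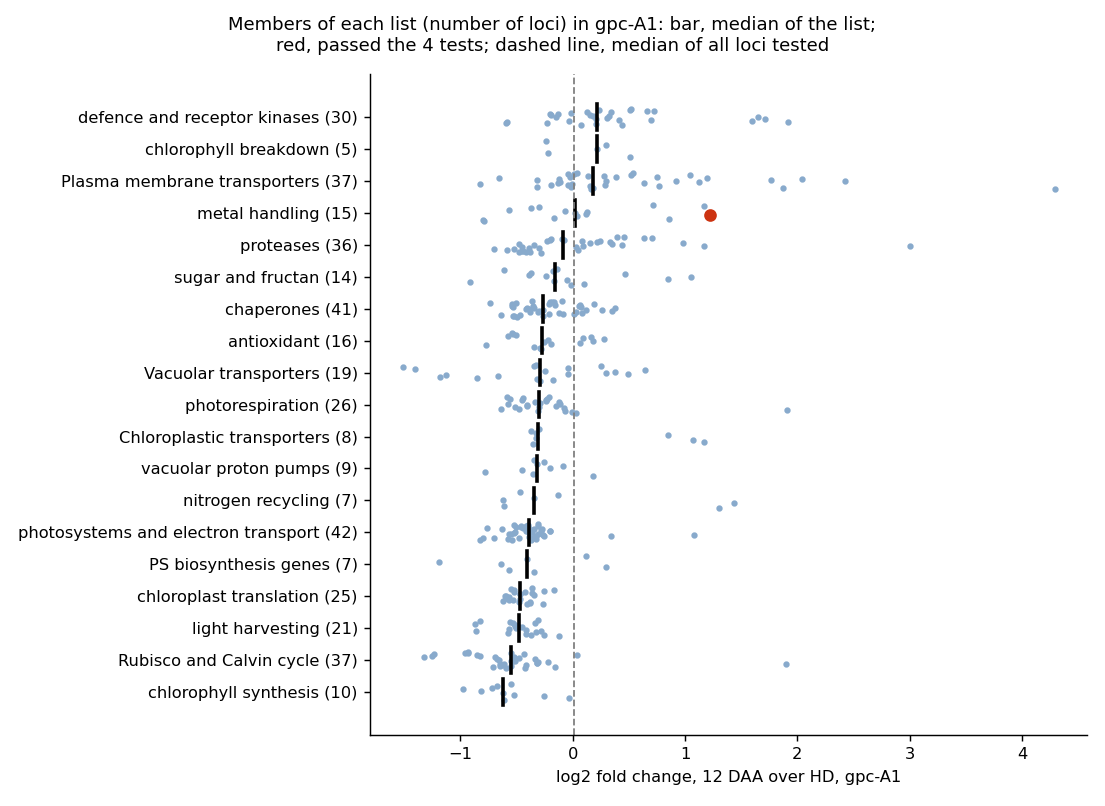
Log2 fold change from HD to 12 DAA in *gpc-A1* (horizontal axis) of each member of 19 gene lists (vertical axis, number of loci in parentheses), ordered by median. Blue dots are single loci, the red dot is the 4AL metallothionein, which passed the 4 tests, black bars are list medians and the dashed line is the median of all 67479 loci (0.02). All members of the light harvesting, chlorophyll synthesis and chloroplast translation lists lie below 0, and *TaZIP10-like1* (4.29) is the point farthest to the right.

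Chloroplast translation and RNA-binding loci were all lower, 25 of 25, with a median of -0.47 and 19 at an unadjusted P below 0.05, and their summed counts did not overlap between the groups (ratio of means 0.726). In WT the median was -0.22 and the ratio 0.798. None passed the 4 tests or edgeR's adjusted P of 0.01, and DESeq2 called 3. Of 9 vacuolar proton pump loci, which energize vacuolar uptake, 8 were below 0 (median -0.31, 5 at an unadjusted P below 0.05), and of 16 antioxidant loci 11 (median -0.27, 6 at that P), each with sums that did not overlap. Chaperones were lower at 30 of 41 loci (median -0.26, 9 at that P) and photorespiration loci at 24 of 26 (median -0.30, 8 at that P). An exception among the latter was catalase isozyme 2 on 6AS, which breaks down hydrogen peroxide, with 6127, 5686, 7518 and 12418 normalized counts at HD and 19089, 35087, 22611 and 42349.7 at 12 DAA (log2 fold change 1.91, SE 0.31, edgeR adjusted P = 0.0134). Sugar and fructan loci had a median of -0.16, with 10 of 14 below 0 (4 lower and 2 higher at that P). The 2 lists with medians of 0.1 or more besides the plasma membrane transporters were defence and receptor kinases (21 of 30 above 0, median 0.22, 9 higher and 2 lower at that P) and chlorophyll breakdown (3 of 5, median 0.22, 1 higher at that P). In these 7 lists no locus passed edgeR's adjusted P of 0.01, and DESeq2 called 3 photorespiration loci lower and 1 higher, 2 antioxidant loci lower and 1 chlorophyll breakdown locus higher. In no list other than metal handling did a member pass the 4 tests, and the medians without HD replicate 1 had the same sign in every list.

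Among the most abundant members of these lists, heat shock cognate 70 on 5BL had a log2 fold change of 0.26 (SE 0.21) and the chloroplast Rubisco-binding chaperonin subunit on 4AL of -0.54 (SE 0.20). The HD and 12 DAA groups of both overlapped. The receptor-like kinases on 3B (contig 10632597) and 4AL (contig 7074563) were at 0.18 (SE 0.18) and -0.15 (SE 0.16). Of the enzymes that remove peroxides, cytosolic ascorbate peroxidase on 2AS was at -0.53 (SE 0.20) and chloroplast phospholipid hydroperoxide glutathione peroxidase on 7AS at -0.34 (SE 0.22). The groups overlapped at these 4 loci too. The pheophorbide a oxygenase-like loci on 5BL and 2BS were at -0.22 (SE 0.15) and -0.24 (SE 0.21). Sucrose-phosphate synthase and phosphoglucomutase on 4BS were at -0.055 (SE 0.19) and -0.165 (SE 0.15), and the photorespiratory enzymes GLO1 on 5BL and serine hydroxymethyltransferase on 4AL at -0.08 (SE 0.18) and -0.11 (SE 0.23). None of these 6 loci had groups that stood apart. The vacuolar pyrophosphatases on 7AL and 7BL were at -0.085 (SE 0.22) and -0.78 (SE 0.23, edgeR adjusted P = 0.122). The chloroplast elongation factor on 6AL and the stem-loop binding protein on 5BS were at -0.47 (SE 0.17) and -0.57 (SE 0.18), both with groups that did not overlap. None of these loci passed edgeR or DESeq2 at an adjusted P of 0.01.

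Further named loci lay outside these lists. The third DE locus with a name was the glucose-6-phosphate 1-epimerase-like locus on 5BL (contig 10810670, bases 5919 to 9081), an enzyme that interconverts forms of glucose 6-phosphate, and it fell. Its normalized counts were 5726, 6111, 6480.2 and 4718 at HD and 3157, 2668, 2964 and 2755 at 12 DAA (log2 fold change -0.999, SE 0.14, edgeR adjusted P = 0.00815), with a mean of 1522 at 22 DAA. In WT the change was -1.13. With the replicate block it did not pass (adjusted P = 0.0123), and it failed at least 1 test in 6 of the 8 fits with 1 library left out. Both 2AS loci described as 5'-adenylylsulfate reductase, an enzyme of sulfate assimilation, were lower at 12 DAA without passing all 4 tests. On contig 5189528 the counts were 10991, 7848, 11132 and 5105 at HD and 3085, 2775, 2286 and 1727 at 12 DAA (log2 fold change -1.83, SE 0.27, edgeR adjusted P = 0.00837), and on contig 5305557 the change was -1.84 (SE 0.29, edgeR adjusted P = 0.0123). Both were DE and lower in WT. Ribose-phosphate pyrophosphokinase on 2AL, which makes a precursor of nucleotides, had 40.5, 73.1, 67.4 and 82.7 counts at HD and 577, 1796, 207 and 1634 at 12 DAA (log2 fold change 3.99, SE 0.59, edgeR adjusted P = 0.00925), with 12 DAA replicate 3 far below the other libraries of its group. The edgeR adjusted P of this locus, of the adenylylsulfate reductase locus on contig 5189528 and of the Rubisco activase locus at base 5859 was 0.01 or less in 2, 2 and 1 of the 8 fits with 1 library left out, and 0.0437, 0.0337 and 0.0407 without HD replicate 1. The chloroplast inner envelope protein on 1BL (-0.83, SE 0.15) and the epoxide hydrolase 3-like locus on 3B (-0.74, SE 0.13) had edgeR adjusted P of 0.0215 and 0.0217.

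The 133 other DE loci were not among those whose descriptions were read and are given by position. Among DE loci whose higher group reached 50 normalized counts, the 2 largest rises were on homoeologous group 1. The 1BS locus (contig 3453129, bases 474 to 909) had 6.33, 10.2, 2.5 and 6.79 normalized counts at HD and 138, 114, 126 and 58.1 at 12 DAA (log2 fold change 4.02, SE 0.38, edgeR adjusted P = 0.00127), and it was DE in WT too (5.83). With 1 library left out it failed at least 1 test in 5 of the 8 fits, among them that without HD replicate 1 (adjusted P = 0.0103). The 1BL locus (contig 3919334, bases 583 to 1893) had 8.86, 12.2, 0 and 0 at HD and 83.1, 71.6, 73.0 and 113 at 12 DAA (log2 fold change 3.93, SE 0.58, edgeR adjusted P = 0.00854). This locus was DE in WT as well, but in the double mutant its means were 2.49 at HD and 2.67 at 12 DAA, and it failed at least 1 test in all 8 fits with 1 library left out. The 2 largest falls were a 6AL locus (contig 5722309, bases 15 to 249) with 558, 363, 536 and 420.1 at HD and 63.6, 64.6, 81.5 and 16.7 at 12 DAA (log2 fold change -3.05, SE 0.35, edgeR adjusted P = 0.00267), and a 3AS locus (contig 3443437, bases 7902 to 8978) with 51.9, 80.2, 71.2 and 54.4 at HD and 12.2, 0.87, 4.23 and 2.95 at 12 DAA (log2 fold change -3.75, SE 0.46, edgeR adjusted P = 0.00371). Both were near silent at 22 DAA, with means of 5.36 and 0.74. The 6AL and 3AS loci failed at least 1 test in 4 and 6 of the 8 fits with 1 library left out, and without HD replicate 1 both had an adjusted P of 0.0132.

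The same interval was then read in genotypes that share no library with the comparison. Of the 79 loci that rose in *gpc-A1*, 79 were higher at 12 DAA in WT and 78 in the double mutant, and of the 57 that fell, 56 and 57 were lower. Among all tested loci that were higher in *gpc-A1*, 64% were higher in WT and 69.6% in the double mutant, and of those lower, 68.3% and 69.1% were lower. In the double mutant the HD and 12 DAA libraries did not overlap at 71 (89.9%) and 49 (86%) of the DE loci, against 13.3% and 13.7% of all tested loci with the same direction. The median log2 fold changes of the loci that rose were 1.73 in *gpc-A1*, 1.51 in WT and 1.68 in the double mutant, and of those that fell -1.92, -1.86 and -1.86.

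In WT 1238 loci (1.76%) were DE by the same 4 tests, 955 higher (1.36%) and 283 lower (0.402%), and by edgeR alone 1928 (2.74%). The 48 loci that rose in both genotypes were 60.8% of the loci that rose in *gpc-A1* and 5.03% of those in WT, and the 12 that fell in both were 21.1% and 4.24%. The WT count moved with single libraries as well, from 429 to 1960 with 1 left out. Of the WT DE loci tested in *gpc-A1*, 907 of 931 that rose and 269 of 281 that fell had the same direction in *gpc-A1*, 697 and 176 of them with an unadjusted P below 0.05. Their median log2 fold changes were 1.60 in WT and 0.97 in *gpc-A1* for the rises, and -1.50 and -0.75 for the falls. These loci were chosen for their change in WT, so the larger WT medians are a description. The coefficient of variation at 12 DAA was higher in *gpc-A1* than in WT and that at HD lower (above), and the part of this in the lower count was not tested.

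**Figure D4:**
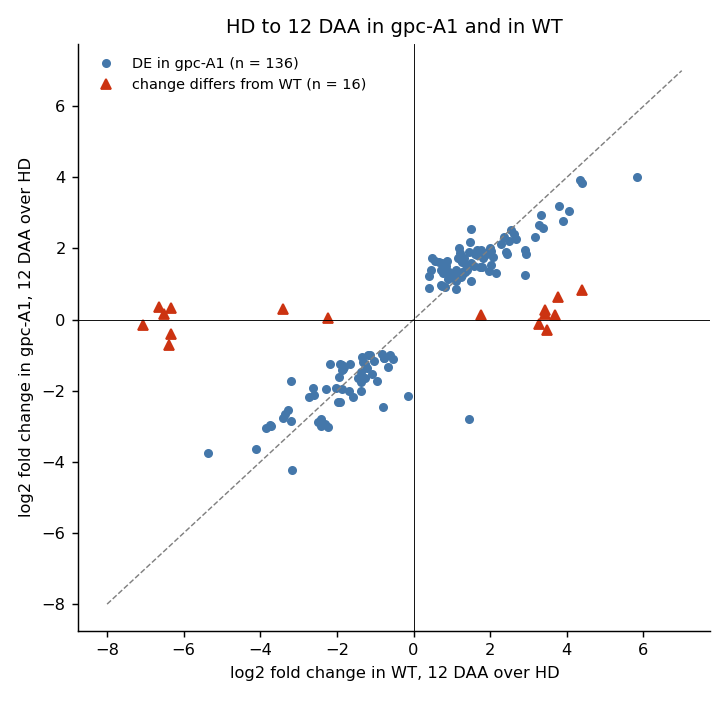
Log2 fold change from HD to 12 DAA in WT (horizontal axis) against that in *gpc-A1* (vertical axis). Blue circles are the 136 loci DE in *gpc-A1*, red triangles the 16 loci tested in both genotypes whose change differed between them, and the dashed line marks equal change: all but 1 of the circles have the same sign in both genotypes, and the triangles lie near 0 on the vertical axis (within 0.832).

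The difference between the genotypes was tested directly with the interaction of genotype and time. At an adjusted P of 0.01, 17 of 71877 loci (0.0237%) changed differently in *gpc-A1* and WT, and 34 (0.0473%) at 0.05. The count was 28, 28 and 33 without WT HD replicates 1, 3 and 4, 12 without *gpc-A1* HD replicate 1, 7 with all 9 groups in one fit and 114 (0.159%) by DESeq2. None of the 17 was DE in *gpc-A1*, 10 were DE in WT and none had a name. Of the 136 loci DE in *gpc-A1*, none differed at 0.01 by edgeR, 1 differed at 0.05, and DESeq2 called 2 at 0.01. An unadjusted P below 0.05 was found at 25 of them (18.4%), against 6.11% of all loci. They were chosen for their change in the *gpc-A1* libraries, which also enter the interaction, so the 2 shares are not on equal terms. Among the 71 transporter and synthesis loci none differed at 0.05, 14 (19.7%) had an unadjusted P below 0.05 and DESeq2 called 2 at 0.01. Those 71 were matched through their WT levels, so their share is not on equal terms with that of all loci either. Among the 739 named loci none differed at 0.05, and 40 (5.41%) had an unadjusted P below 0.05. The smallest interaction P of a named locus belonged to cytosolic-like glyceraldehyde-3-phosphate dehydrogenase, a glycolytic enzyme, on 7BL (difference 3.86, adjusted P = 0.0524). In *gpc-A1* its counts were 768, 729.9, 659 and 493 at HD and 1205, 1283, 627 and 1091 at 12 DAA, while in WT 3 of the HD libraries had 7104 to 12111 and HD replicate 3 had 748. The delta-cadinene synthase locus on 2AS, of terpene synthesis, was at 0.28 (SE 0.18) in *gpc-A1* and 1.27 in WT, where it was DE (difference -0.97, SE 0.25, interaction adjusted P = 0.318).

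At the 17 loci the 4 WT 12 DAA libraries stood apart. All 17 had these 4 libraries outside the range of the other 20 libraries of the 3 genotypes at HD and 12 DAA. Of those 20, only the 8 double mutant libraries had no part in choosing the loci. The log2 fold changes in *gpc-A1* were at most 0.83 in size at the 16 loci tested, against 1.75 to 11.41 in WT. In WT 9 loci were higher and 8 lower at 12 DAA. The 8 lower loci went from means between 28.5 and 525.4 at HD to between 0.09 and 109.7, 5 of them under 1. The loci named next were chosen after their values were seen. A 5AS locus (contig 1468630, bases 1 to 1126) had means of 318.6 at HD and 4.37 at 12 DAA in WT and 295.1 and 221.7 in *gpc-A1* (difference 5.93, SE 0.56, edgeR adjusted P = 7e-05). A 7BS locus (contig 3163273, bases 574 to 4116) had means of 83.8 and 1074 in WT and 64.0 and 70.1 in *gpc-A1* (difference -3.56, SE 0.45). On 1BS (contig 3455785, bases 9175 to 10071) the means were 43.9 and 915.6 in WT and 27.3 and 48.5 in *gpc-A1*, which reached 476.1 at 22 DAA.

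The 22 DAA libraries had no part in choosing the 17 loci. Of these libraries, WT replicate 4 was nearer to WT 12 DAA than to WT HD at all 17 loci, whereas replicates 1, 2 and 3 were nearer to 12 DAA at 4, 3 and 7. At 10 loci, among them all 8 that were lower in WT, only replicate 4 was nearer. The 1AS locus on contig 3259625 (bases 4483 to 5844) illustrates this: its WT means were 525.4 at HD and 109.7 at 12 DAA, and the 4 WT libraries at 22 DAA held 882, 691, 842 and 158 normalized counts, while *gpc-A1* had means of 601.9 and 624.3. At these 8 loci the WT values thus divided by library as well as by time. What else the WT 12 DAA leaves and this 22 DAA leaf may share was not tested.

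**Figure D5:**
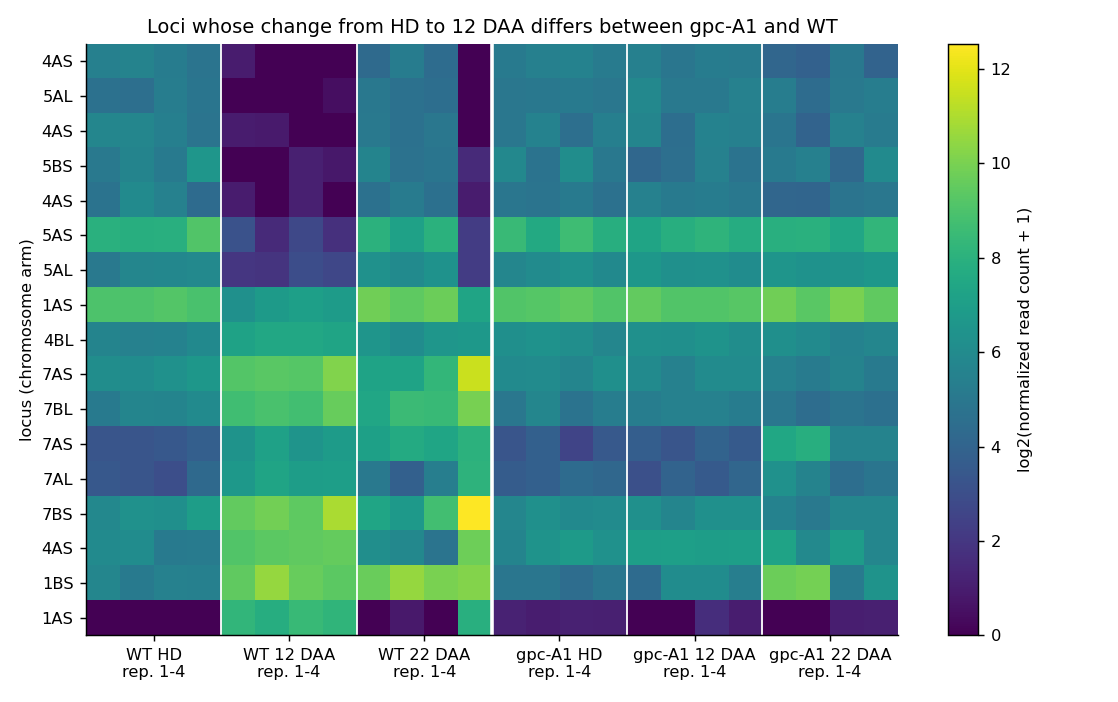
Normalized counts on a log2(count + 1) colour scale at the 17 loci (rows, by chromosome arm) whose change from HD to 12 DAA differed between *gpc-A1* and WT, in the 4 replicates of each WT and *gpc-A1* group (columns). The 4 WT 12 DAA columns differ from WT HD and from the HD and 12 DAA columns of *gpc-A1* in every row, and in the 8 upper rows, lower at 12 DAA in WT, the fourth WT 22 DAA column resembles them.

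One locus that fell in *gpc-A1* was higher at 12 DAA in WT. It is on 6BL (contig 4261467, bases 3542 to 4984) and was singled out after its values were seen. In *gpc-A1* it had 515, 321, 385 and 634 normalized counts at HD and 55.0, 92.5, 22.2 and 96.4 at 12 DAA (log2 fold change -2.79, SE 0.37, edgeR adjusted P = 0.00568). In the double mutant the means were 946.2 and 32.7, and in WT 952.7 and 2566 (log2 fold change 1.45, SE 0.41). The difference was -4.22 (SE 0.62) with an interaction adjusted P of 0.0101, just outside the limit of 0.01, so it was not among the 17.

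Between *gpc-A1* and the double mutant, 1 of 70391 loci (0.00142%) changed differently at an adjusted P of 0.01, 3484 (4.95%) had an unadjusted P below 0.05, and DESeq2 called 20. The 1 locus, on 4BL (contig 6992123, bases 2050 to 7010), had 1241, 800, 813 and 638 normalized counts in the 4 double mutant HD libraries and a mean of 70.7 at 12 DAA. In *gpc-A1* the means were 87.1 and 64.4 and in WT 85.1 and 69.4 (difference 3.20, SE 0.26, adjusted P = 4e-05), so the double mutant at HD was the group that stood apart.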

How the data were processed

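RNA from single flag leaves was sequenced as 50-bp single reads by the study. Samples with the same replicate number, 9 in all, shared a pool and its 3 lanes, so the number marks a sequencing batch. Per the labels and methods, the authors aligned reads with GSNAP to survey-sequence contigs of the A and B genomes and, with HTSeq, summed the reads with a single mapping position at each locus, without strand, and the deposited values are whole-number read counts. Reads shared by homoeologs or paralogs are lost, so the counts of near-identical copies are uncertain, as are those of antisense genes. The per-locus intervals carry no exon annotation here.

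From these counts, normalized counts were made with median-of-ratios size factors over 36 libraries. Loci were tested with edgeR 4.0.16 (quasi-likelihood, TMM factors), DESeq2 1.42.0, an exact no-overlap criterion and a t-test in R 4.3.3, after the 4-test rule of the methods, with DESeq2 in place of DESeq. Fold changes are from edgeR, 12 DAA over HD, except those within the double mutant, which are log2 ratios of mean normalized counts plus 1. SE were derived from the edgeR fold change and its test statistic, and adjusted P are Benjamini-Hochberg. Tests were checked on simulated counts with 100 changed loci of each size, drawn from loci with a mean of at least 50 normalized counts. Recovery of changes at loci below this level was not simulated. The 4 tests recovered 18 of 100 changes of 2-fold and 83 of 100 of 4-fold, with 1 false call. The interaction test of *gpc-A1* against WT recovered 6 of 100 at 2-fold and 74 of 100 at 4-fold, with 2 false calls. Most simulated 2-fold changes were thus missed, so a locus that did not pass may still have changed by that much. Deviations of same-numbered HD and 12 DAA libraries correlated at -0.085, -0.07, 0.046 and 0.195 in *gpc-A1*, and a fit with the number as a block was an alternative. Other alternatives were size factors, filters, thresholds, all 9 groups in one fit and each library left out.

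The members, gene lists and tests were chosen with earlier results of these data known. Named in the text are the 10 largest named rises and falls past the 4 tests, filled up by smallest edgeR P where fewer passed, *GPC-A2*, the NAM-B1-described locus, the most abundant members of each list, the 2 largest unnamed changes in each direction and the 6 named loci with the smallest interaction P. Protein descriptions were read for the 782 most abundant loci, of which 670 name a protein, in the part of the supplementary table used here. Of the transporter and synthesis genes 71 were assigned to a locus by hand from the chromosome arm and the WT levels given for them, which agreed to within 1 count. A WT level of 50 or more was needed: 34 were too low to match, 8 had no value and 1 (*TaYSL6* on 2BL) was not matched. Each library is a separate leaf, and depth sets the precision of low loci.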

Additional observations from a re-analysis of the deposited data

Results flagged for a closer look

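Single libraries stood apart from the other 3 of their group at 14 of 136 groups of 4 examined by Dixon's test, and chance gives about 1 in 20. Replicate 4 was the lowest HD library at the delta-cadinene synthase locus on 2AS (5815.65 normalized counts, the others 7814.61 to 8055.03), serine hydroxymethyltransferase on 4AL (63802.3, the others 101013.87 to 102050.38), the Rubisco activase locus on 4BS at base 10201 (116648.18, the others 201018.94 to 210642.51) and the Mg-chelatase XANTHA-F loci on 2BS (17500.17, the others 23751.24 to 24548.94) and 2AS (17102.72, the others 23833.47 to 24965.16). It was the highest HD library at *TaYSL16* on 2BL (2544.35, the others 2114.29 to 2183.59). At 12 DAA replicate 4 was highest at cytosolic glutamine synthetase on 6BL (6245.09, the others 3225.91 to 3473.91) and lowest at the pheophorbide a oxygenase-like locus on 2BS (15371.63, the others 24917.34 to 26784.64).

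Other libraries stood apart singly. HD replicate 3 held 21.23 normalized counts of *TaZIP10-like1* (the others 1.27 to 3.4), and HD replicate 2 held 944.11 of *TaNRAMP2* on 4BL (the others 433.35 to 493.7). At 12 DAA replicate 2 held 554.39 of *GPC-A2* (the others 308.02 to 334.44) and 9537.32 of nitrate reductase on 6AS (the others 1831.15 to 2853.89). Total counts were highest in *gpc-A1* HD replicate 2 (22106644, the others 16984134 to 17503851) and in WT 12 DAA replicate 4 (48981831, the others 18581039 to 23757790).

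The change from HD to 12 DAA differed between *gpc-A1* and WT at 17 loci and between *gpc-A1* and the double mutant at 1 locus, each by the edgeR interaction test, and the values are in the report.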

How the results depend on the processing

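Depth was not varied, and its part in the counts of calls was not tested. In *gpc-A1* the 136 DE loci became 216 (139 higher) by edgeR alone or without the t-test, 1528 (922 higher, 606 lower) by DESeq2 alone and 562 (319 higher, 243 lower) at an adjusted P of 0.05. With all 9 groups in one fit there were 193, of which 140 (72.5%) were higher and 53 lower, and 87 of the 136 remained. With 1 library left out there were 8 to 188, 6 to 85 higher and 2 to 103 lower. In each of these fits the 136 loci had the same direction, which their lack of overlap made all but certain. Other size factors (135), no filter (185) and a mean of at least 10 counts (131) stayed within 1.5 times. With the replicate block there were 110 (61 higher, 49 lower), 92 of the 136 among them. The block ended the call of the glucose-6-phosphate 1-epimerase-like locus and of the 1BL 3919334 locus, and with it *TaZIFL7* and the 1BS metallothionein-like locus passed the 4 tests. It changed no other call of a named locus.

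In WT the 1238 DE loci became 1928 by edgeR alone, 3811 by DESeq2 alone, 1894 without the t-test, 2466 at an adjusted P of 0.05, 1121 with the block and 429 to 1960 with 1 library left out. The 17 loci that differed from WT became 7 with all 9 groups, 114 by DESeq2, 21 with the block and 12 to 33 with 1 library left out. The 1 locus that differed from the double mutant became 2 with all 9 groups and 20 by DESeq2. The cause of these moves was not tested.

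Small changes that no fit called took the other sign at 5 loci with 1 library left out. *TaZIP3* ranged from -0.122 to 0.478, *TaYSL14* on 6AL from -0.17 to 0.116, sucrose-phosphate synthase from -0.217 to 0.055, the peroxisomal hydroxy-acid oxidase GLO1 from -0.14 to 0.003 and the vacuolar pyrophosphatase on 7AL from -0.273 to 0.021.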
